A study of Homo sapiens with 22 samples.

Results

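The phagocyte NADPH oxidase is the enzyme with which myeloid cells make superoxide. The genes described here encode 5 of its subunits, CYBB, CYBA, NCF1, NCF4 and RAC2, out of 20411 genes in each RPKM table. They were selected by symbol and not by a rule on measured values, but earlier results of these data were known by then. RNA-seq was analysed from MOLM-13, an acute myeloid leukemia line with a KMT2A rearrangement, and NB4, an acute promyelocytic leukemia line, both labelled wild type. Cells received DMSO, the vehicle, or 2 μM FP54 for 48 hours, with 3 libraries per treatment and cell line, and no other agent or allele is given in the labels. FP54 is a proteolysis-targeting chimera that joins a ligand of FTO, an RNA m6A demethylase, to a ligand of the VHL ubiquitin ligase, so that the FTO protein is marked for degradation. The labels hold 22 samples, of which the 10 of m6A-seq or polysome-seq are not analysed here. The labels do not say whether the 3 libraries came from separate cultures, so p-values measure the spread between these libraries, which may be technical. That the second table is of NB4 cells is known only from its name.

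In a resting phagocyte the oxidase is kept in separate pieces. CYBB encodes gp91phox (NOX2), the catalytic subunit that carries electrons from NADPH across the membrane to oxygen, and CYBA encodes p22phox, its membrane partner; together they form flavocytochrome b558. NCF1 encodes p47phox, the organizer that is phosphorylated on activation and docks on p22phox, NCF4 encodes p40phox, which binds phosphatidylinositol 3-phosphate on phagosomes, and RAC2 encodes the small GTPase that completes the active complex in blood cells. Loss of CYBB, CYBA, NCF1 or NCF4 function causes chronic granulomatous disease. CYBB, NCF1 and NCF4 are silent or low in early progenitors and are switched on as myeloid cells mature. PU.1, C/EBP and interferon regulatory factors are among the known regulators of oxidase genes.

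FP54 was followed by higher mRNA of the cytosolic subunits NCF1 and NCF4 in both cell lines, by higher RAC2 in NB4 cells, and by opposite movements of the catalytic subunit CYBB. CYBB rose to 161% of its DMSO mean in MOLM-13 cells and fell to 61.6% in NB4 cells. CYBA passed the test in neither line. A gene is called here when limma, fitted to log2(RPKM + 0.1), gave an unadjusted p below 0.01 and the log2 fold change was 0.5 or more upward or downward, the cutoff of the study's methods. In MOLM-13 cells 3 of the 5 genes were called higher and 0 lower, against 9.3% called higher and 9.04% called lower of the 9710 genes tested. In NB4 cells 3 were called higher and 1 lower, against 18.6% and 10.7% of 9853 genes. The same calls were made at a Benjamini-Hochberg adjusted p below 0.05 and that fold, which 9.22% of genes passed upward and 8.95% downward in MOLM-13 cells and 19.1% and 10.7% in NB4 cells. All 5 genes passed the filter of a mean of 1 RPKM in both lines. The median log2 fold change of the 5 genes was 0.68 in MOLM-13 and 0.83 in NB4 cells, beside 0.0033 and 0.070 over all genes tested.

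CYBB lies at X:37780018-37813461 on the plus strand (hg38, GENCODE), and a protein-coding gene model without a symbol overlaps its span on the same strand. CYBA lies at 16:88643275-88651083 on the minus strand and NCF1 at 7:74774011-74789315 on the plus strand. NCF4 (22:36860988-36878017, plus strand) and RAC2 (22:37225270-37259594, minus strand) are neighbours on chromosome 22 with 347252 bases between them. Exons of NCF4 are overlapped by NCF4-AS1, a noncoding RNA of the opposite strand, and the strand setting of the counting is not stated, so reads of the 2 genes may not have been told apart. NCF1 has near-identical copies on the same chromosome, NCF1B and NCF1C. Of the 1270 windows of 80 bases, the read length, along the NCF1 transcript, 917 (72.2%) also occur in a transcript of those copies, while 0 windows of the other 4 genes do. The level of NCF1 is therefore uncertain, since the treatment of reads that match several copies is not known here.

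RefSeq promoter sequence (GRCh38.p14) was at hand for 3 of the 5 genes, CYBB, CYBA and NCF1. It was searched over the 250 bases before the start for GAGGAA, the core bound by PU.1 and other ETS factors, on both strands. The start is the RefSeq start of the gene, at 37780059 for CYBB, which lies inside the GENCODE span given above, and at 74774011 for NCF1, where both annotations agree on the base. These windows are shown because CYBB and NCF1, which moved in opposite directions in NB4 cells, both hold the motif on the opposite strand. The match begins 48 bases before the RefSeq start of CYBB, or 7 before its GENCODE start, and 45 before the start of NCF1, and capitals mark it as TTCCTC, the reverse complement of the motif. The windows are X:37779999-37780028 and 7:74773954-74773983, both on the plus strand.
CYBB: tgctgttttcatTTCCTCattggaagaaga
NCF1: gacaaaagcgacTTCCTCtttccagtgcat
The motif stands in 23.6% of the 15270 promoters searched, and these letters were not in the CYBA window. CCAAT, the box bound by NF-Y and CCAAT displacement factors and searched on both strands over the same windows, stands in 34.8% of promoters. Among the 3 genes it was found only in CYBB, at 4 places. Those in the orientation of the gene begin 116 and 102 bases before the RefSeq start (75 and 61 before the GENCODE start), and are shown with the box in capitals (X:37779930-37779959 and X:37779944-37779973, plus strand) because they are the letters that set CYBB apart from the other 2 promoters.
CYBB first box: gcttttcagttgaCCAATgattattagcca
CYBB second box: caatgattattagCCAATttctgataaaag
The other 2 matches lie on the opposite strand, 230 and 42 bases before the RefSeq start, and the latter adjoins the PU.1 core printed above. A match describes the letters only.

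Library totals recovered from the RPKM values ranged from 5829735 to 19191062 reads in MOLM-13 cells, with FP54 replicate 2 the shallowest, and from 10595652 to 22344278 reads in NB4 cells. The fewest reads on any of the 5 genes were 285, for NCF1 in NB4 cells with DMSO, and in MOLM-13 cells 495, for CYBB in FP54 replicate 2. The identity of the lines was checked on markers, and 6 of 7 myeloid markers reached 1 RPKM in each line. Of 5 markers of KMT2A-rearranged cells, 5 reached 1 RPKM in MOLM-13 and 3 in NB4 cells. HOXA9 was at 21.3 RPKM in MOLM-13 and 0.234 RPKM in NB4 cells with DMSO, and MEIS1, PBX3 and FLT3 also stood higher in MOLM-13 cells. HOXA10 stood the other way, at 7.30 RPKM in MOLM-13 and 13.2 RPKM in NB4 cells with DMSO. T and NK cell markers at 1 RPKM or more numbered 0 of 6 in MOLM-13 cells. In NB4 cells 1 of 6 reached it, CD3D, with a mean of 6.35 RPKM with DMSO and 10.3 with FP54. B cell markers at 1 RPKM or more numbered 0 of 4 in MOLM-13 and 2 of 4 in NB4 cells. These were CD79A, with means of 1.12 RPKM with DMSO and 1.17 with FP54, and CD79B, with 3.94 and 5.79 RPKM. Erythroid markers at 1 RPKM or more numbered 0 of 5 in both lines, and the platelet genes PF4 and PPBP were at 0. The mRNA of FTO, whose protein is the target, was not called in either line (log2 fold change -0.0049, adjusted p = 0.989, in MOLM-13, and -0.41, adjusted p = 0.0119, in NB4 cells), but it was called lower in NB4 cells under median-ratio scaling (-0.60) and quantile normalization (-0.74). Mean RPKM of 416 olfactory receptor genes, which these cells are not known to use, was 0.0039 to 0.0083 in the MOLM-13 libraries and 0.0017 to 0.0037 in NB4 cells with DMSO, but 0.0496 to 0.0549 in NB4 cells with FP54. Subtracting this level from each library, an alternative chosen after seeing the data, changed the call of none of the 5 genes. Their lowest value was 3.96 RPKM, for NCF1 in NB4 DMSO replicate 3, so so small a level could hardly have changed a call.

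CYBB was at 10.3, 10.0 and 10.9 RPKM in DMSO replicates 1 to 3 of MOLM-13 cells and at 14.2, 17.7 and 18.6 RPKM with FP54. Every FP54 library stood above every DMSO library. The fitted log2 fold change was 0.68 (SE 0.15, 95% interval 0.35 to 1.00), with an adjusted p of 0.0141 by limma. In NB4 cells CYBB was at 29.8, 24.5 and 30.6 RPKM with DMSO and at 17.8, 17.5 and 17.0 RPKM with FP54, so that here every FP54 library stood below. The log2 fold change was -0.69 (SE 0.10, interval -0.91 to -0.47), with an adjusted p of 0.000244. With DMSO the mean level was 10.4 ± 0.446 RPKM in MOLM-13 and 28.3 ± 3.31 RPKM in NB4 cells (SD, n = 3). With FP54 the means were 16.8 ± 2.33 and 17.4 ± 0.359 RPKM (SD, n = 3), so the levels in the lines lay close to each other after treatment. Because the tables may have been scaled separately, levels between lines are set side by side without a test. In bulk RNA a smaller share of cells that express a gene and less RNA of it per cell cannot be told apart.

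The difference of the CYBB responses, tested as an interaction term by limma over the 12 libraries together, was -1.36 on the log2 scale (NB4 minus MOLM-13, SE 0.18, interval -1.74 to -0.99, adjusted p = 0.000121). At an adjusted p below 0.05, 14.2% of the 8849 genes tested in both lines differed: 10.5% of the 8849 upward and 3.75% of the 8849 downward. CYBB ranked 112 of 8849 by p. Genes called higher in MOLM-13 and lower in NB4 cells numbered 15, or 0.17% of those tested in both. Besides CYBB they included CEBPD, which encodes the myeloid transcription factor C/EBP delta and is named as a member of a list below. Its MOLM-13 call was lost when DMSO replicate 2, FP54 replicate 1 or FP54 replicate 3 was left out. The rest, histone genes among them, are not reported by name.

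CYBA, the partner of CYBB in the membrane, was at 47.8, 35.4 and 49.0 RPKM with DMSO and 57.0, 62.1 and 59.5 RPKM with FP54 in MOLM-13 cells. The treatments did not overlap, but the log2 fold change of 0.45 (SE 0.15, interval 0.11 to 0.79, adjusted p = 0.0650) was not called. It was 0.53 and called under quantile normalization (adjusted p = 0.0282). In NB4 cells CYBA was at 43.3, 59.0 and 45.0 RPKM with DMSO and at 46.1, 47.4 and 44.2 RPKM with FP54, and the treatments overlapped. The log2 fold change was -0.083 (SE 0.11, interval -0.34 to 0.17, adjusted p = 0.566), and DMSO replicate 2, the highest library, set its sign: it was 0.056 without that library. The interaction of CYBA was -0.53 (interval -0.96 to -0.10, adjusted p = 0.0932), which did not pass, and it passed under median-ratio scaling at -0.71 (adjusted p = 0.0384).

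**Figure D1:**
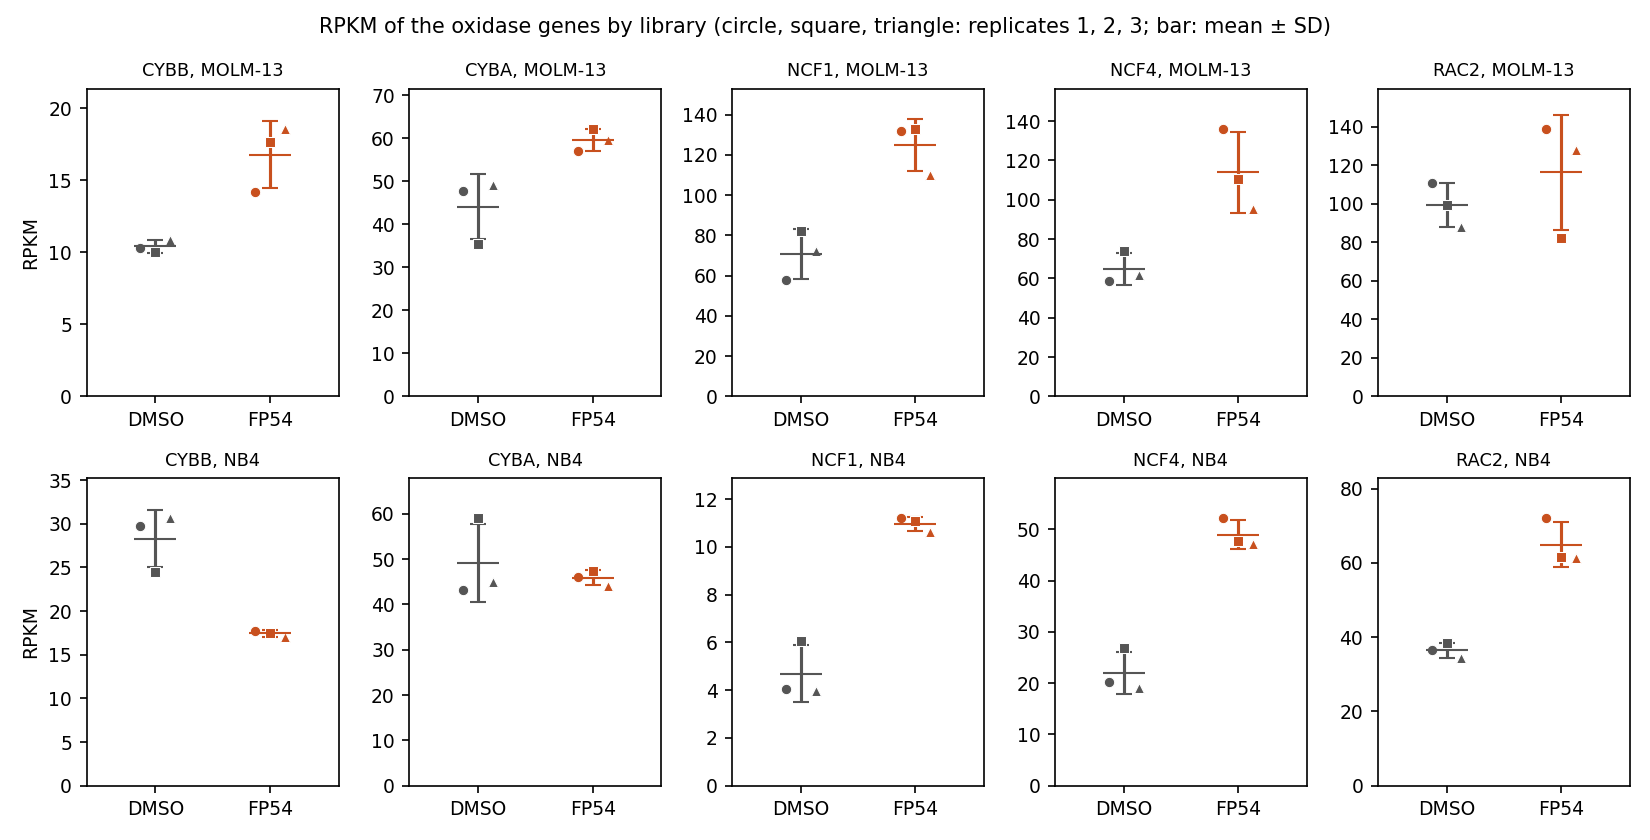
RPKM (vertical axes, each from 0) of CYBB, CYBA, NCF1, NCF4 and RAC2 in the 3 DMSO and 3 FP54 libraries of MOLM-13 (top) and NB4 (bottom) cells. Points are libraries, with the mean and SD as bars. CYBB stands higher with FP54 in MOLM-13 cells and lower in NB4 cells, while NCF1 and NCF4 stand higher in both.

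NCF1, the organizer subunit, was at 57.8, 82.1 and 72.5 RPKM with DMSO and 132, 133 and 110 RPKM with FP54 in MOLM-13 cells, with no overlap. Its log2 fold change was 0.83 (SE 0.16, interval 0.47 to 1.18, adjusted p = 0.00900). In NB4 cells it was the lowest of the 5 genes, at 4.04, 6.08 and 3.96 RPKM with DMSO and 11.2, 11.1 and 10.6 RPKM with FP54. All 3 FP54 libraries stood above all 3 DMSO libraries, and the log2 fold change was 1.23 (SE 0.15, interval 0.90 to 1.57, adjusted p = 8.34e-05). The mean with DMSO was 70.8 ± 12.3 RPKM in MOLM-13 and 4.69 ± 1.20 RPKM in NB4 cells (SD, n = 3), the widest gap between the lines among the 5 genes.

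NCF4 was at 58.7, 73.7 and 61.7 RPKM with DMSO and 136, 110 and 95.3 RPKM with FP54 in MOLM-13 cells, again with no overlap. Its log2 fold change was 0.81 (SE 0.16, interval 0.44 to 1.17, adjusted p = 0.0106). In NB4 cells it was at 20.1, 26.8 and 19.1 RPKM with DMSO and 52.1, 47.8 and 47.1 RPKM with FP54. The log2 fold change there was 1.17 (SE 0.12, interval 0.90 to 1.44, adjusted p = 3.13e-05). The responses of the lines did not differ by the interaction test for NCF1 (0.41, interval -0.091 to 0.90, adjusted p = 0.268) or for NCF4 (0.36, interval -0.10 to 0.82, adjusted p = 0.291), although these intervals reach differences of 0.90 and 0.82. Of the 8849 genes, 4.09% were called higher in both lines, among them these 2.

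RAC2 was at 111, 99.2 and 87.8 RPKM with DMSO and 139, 82.3 and 128 RPKM with FP54 in MOLM-13 cells. The treatments overlapped, since the FP54 libraries held both the highest value and the lowest. The log2 fold change was 0.20 (SE 0.20, interval -0.24 to 0.64, adjusted p = 0.505) and was not called. The low value belonged to FP54 replicate 2, the shallowest library. Without it the log2 fold change was 0.43 (adjusted p = 0.0586), and without FP54 replicate 1 it was 0.054. In NB4 cells RAC2 was at 36.6, 38.4 and 34.4 RPKM with DMSO and 72.0, 61.5 and 61.3 RPKM with FP54. It rose by 0.83 (SE 0.091, interval 0.63 to 1.03, adjusted p = 4.23e-05) with no overlap. The interaction of 0.63 (interval 0.13 to 1.13, adjusted p = 0.0916) did not pass, so a difference between the lines was not shown; without MOLM-13 FP54 replicate 1 it was 0.77 and passed (adjusted p = 0.0407).

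**Figure D2:**
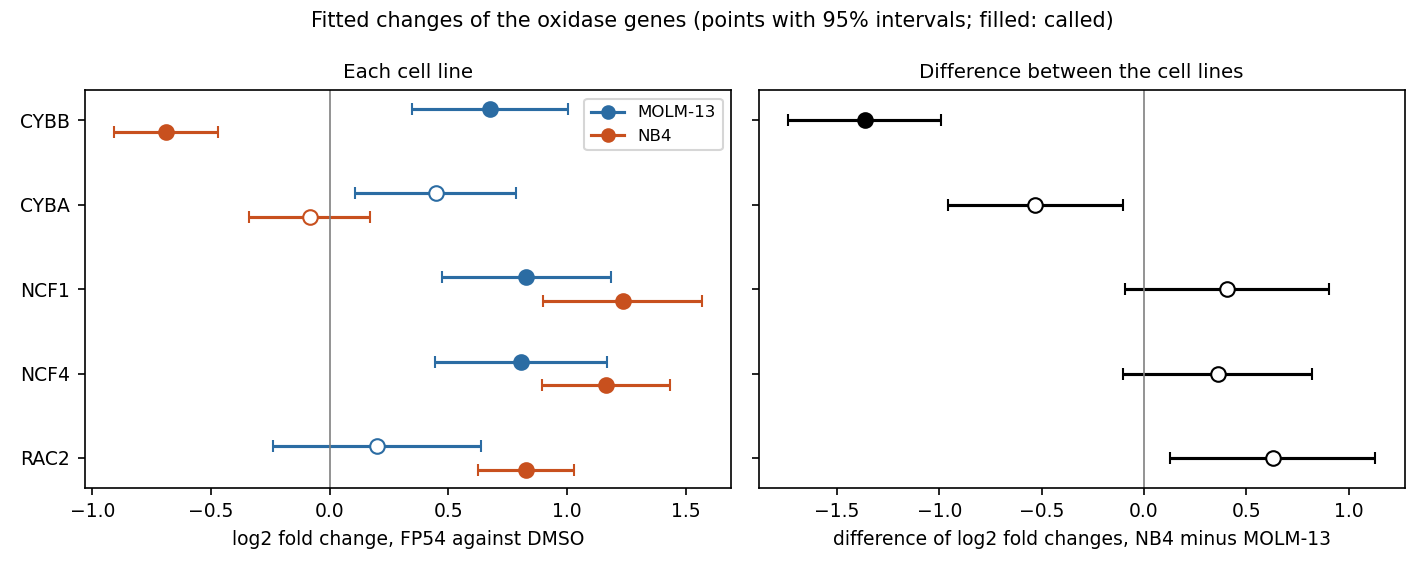
Fitted log2 fold changes of FP54 against DMSO in each cell line (left) and their difference, NB4 minus MOLM-13 (right), with 95% intervals; filled points were called. In the right panel the interval of CYBB lies furthest from 0 and its point is the only filled one.

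In MOLM-13 cells 4 of the 5 genes, and in NB4 cells also 4, had no overlap between treatments. Over all genes tested this held for 37.1% in MOLM-13 and 60.5% in NB4 cells. Another scaling moved all genes of NB4 cells together: the median log2 fold change over all genes was 0.070 with RPKM as deposited and -0.13 under median-ratio scaling. The NB4 calls then shifted from 1834 higher and 1050 lower to 1168 higher and 2010 lower, and under quantile normalization to 1280 and 1363. The interaction calls shifted from 926 upward and 332 downward to 623 and 834 under median-ratio scaling and to 836 and 911 under quantile normalization. The 4 NB4 calls and the CYBB interaction held under both scalings, with the same signs.

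The order of the levels by RPKM differed between the lines. It rests on the gene lengths behind RPKM, which match all exons of a gene joined. For CYBA these are 4161 bases, beside 692 in its main transcript. For NCF1 they are 3413 beside 1349, and for CYBB 4806 beside 4276. Levels scaled by transcript length could rank the genes otherwise and were not computed. In MOLM-13 cells CYBB was the lowest and CYBA the next in all 6 libraries, and RAC2 was the highest in 5 of 6. NCF1 and NCF4 changed places between libraries and did not differ beyond their spread: NCF1 had 70.8 ± 12.3 and NCF4 64.7 ± 7.94 RPKM with DMSO (SD, n = 3). In NB4 cells with DMSO the order was CYBA, RAC2, then CYBB and NCF4 in either order, then NCF1. With FP54 all 3 NB4 libraries had the order RAC2, NCF4, CYBA, CYBB, NCF1. NCF4 and CYBA were close there, at 49.0 ± 2.75 and 45.9 ± 1.63 RPKM (SD, n = 3).

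The size of a ratio between 2 genes depends on these gene lengths, while its change between treatments does not. The ratio of CYBB to CYBA RPKM, both subunits of the flavocytochrome, was 0.217, 0.283 and 0.222 with DMSO and 0.249, 0.285 and 0.312 with FP54 in MOLM-13 cells, with overlap. In NB4 cells it was 0.688, 0.416 and 0.681 with DMSO and 0.385, 0.370 and 0.386 with FP54. All FP54 ratios of NB4 cells were lower, although DMSO replicate 2 lay near them. The exact two-sided permutation p was 0.2 in MOLM-13 and 0.1 in NB4 cells, the smallest that 3 libraries against 3 can give (adjusted over 6 ratio tests, 0.4 and 0.3). The ratio of NCF1 to NCF4 did not move beyond its spread: its mean was 1.09 ± 0.0978 and 1.11 ± 0.124 in MOLM-13 cells with DMSO and FP54, and 0.212 ± 0.0137 and 0.224 ± 0.00865 in NB4 cells (SD, n = 3, exact permutation p = 0.8 and 0.3, adjusted 0.8 and 0.45). The ratio of NCF4 to CYBB in NB4 cells went from 0.676, 1.09 and 0.625 with DMSO to 2.94, 2.73 and 2.76 with FP54 (exact permutation p = 0.1, adjusted 0.3). In MOLM-13 cells this ratio ranged from 5.66 to 7.37 with DMSO and from 5.14 to 9.60 with FP54, with overlap (exact permutation p = 0.8, adjusted 0.8).

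**Figure D3:**
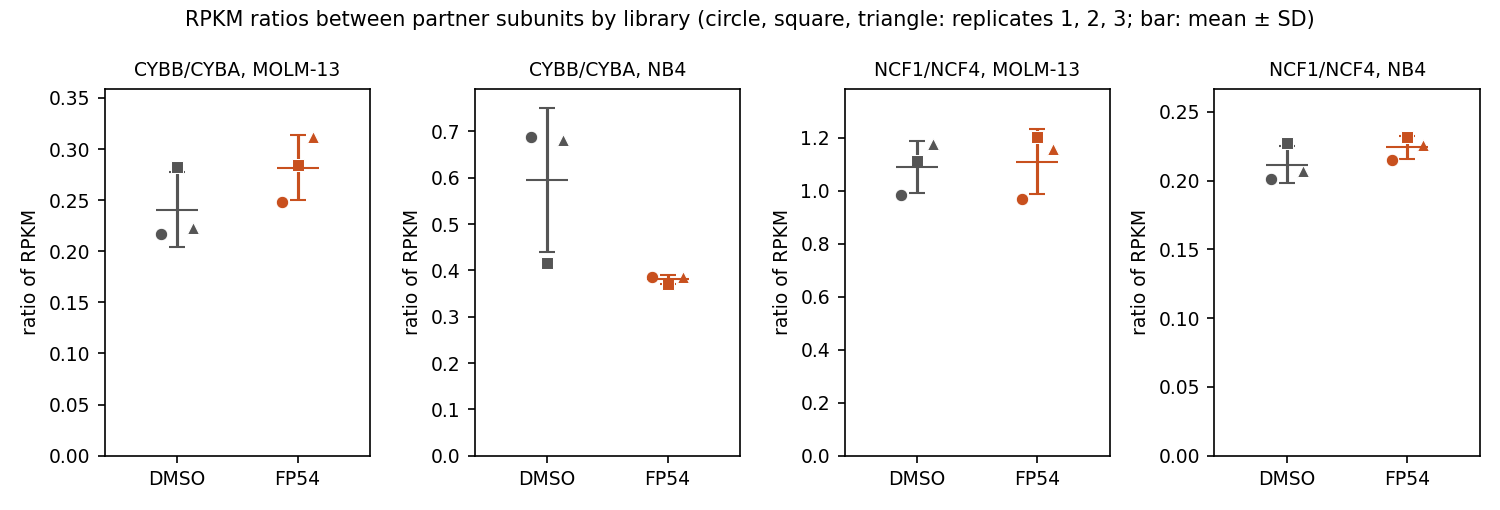
Ratios of RPKM (vertical axes, each from 0) between CYBB and CYBA and between NCF1 and NCF4, by library and treatment in each cell line, with the mean and SD as bars. In NB4 cells the CYBB to CYBA ratio lies between 0.370 and 0.386 with FP54, below the 3 DMSO libraries, while the NCF1 to NCF4 ratios of the treatments overlap.

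Across the 12 libraries, with each gene centred within its cell line, Pearson's r of log2 values was 0.985 between NCF1 and NCF4, 0.792 between NCF4 and RAC2, 0.534 between CYBB and CYBA, and -0.498 between CYBB and RAC2. These describe libraries that share a treatment and a depth, and no p is given. The genes most like CYBB among 8849 were SMNDC1, which encodes a splicing factor (r = 0.961), SLC22A4 (r = 0.918), which encodes a transporter of organic cations, and PTPRA (r = 0.916), which encodes a receptor tyrosine phosphatase. SMNDC1 had log2 fold changes of 0.48 in MOLM-13 and -0.40 in NB4 cells, and neither was called. It was called higher without MOLM-13 FP54 replicate 1 (0.51) and lower in NB4 cells under median-ratio scaling (-0.60). CYBA was most like DOK1 (r = 0.955), IDH2 (r = 0.953) and PILRB (r = 0.946). NCF1 was most like NCF4, COL9A2 and MVP (r = 0.982 for each of the latter), and NCF4 was most like ABTB1 (r = 0.990), MVP (r = 0.989), the major vault protein gene, and LSP1 (r = 0.987), which encodes a leukocyte actin-binding protein. LSP1 had log2 fold changes of 1.61 and 2.07 in MOLM-13 and NB4 cells. RAC2 was most like CACNA2D4 (r = 0.974), CCL5 (r = 0.970) and MPG (r = 0.966).

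Of the other genes of oxidase assembly and regulation, 25 of 29 were tested in MOLM-13 cells, where 6 were called higher and 2 lower, and 22 of 29 in NB4 cells, where 3 were higher and 2 lower. In MOLM-13 cells these are 24% higher and 8% lower, beside 9.3% and 9.04% of all genes tested, and in NB4 cells 13.6% and 9.09%, below the 18.6% and 10.7% of all genes. The median log2 fold changes were 0.26 and 0.12, the latter turning to -0.077 under median-ratio scaling. CYBC1 and the factor SPI1 are named for their known roles, outside the rule for named genes and after their values were seen. CYBC1, the chaperone of the flavocytochrome, had log2 fold changes of 0.49 (adjusted p = 0.0933) and 0.37 (adjusted p = 0.0291) and was called in neither line. Its exons overlap those of HEXD on the opposite strand.

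Among regulators of Rac, PREX1, an exchange factor, rose in NB4 cells (26.2 to 52.8 RPKM, log2 fold change 1.01) and was also called in MOLM-13 cells (1.11). VAV2, another exchange factor, rose in NB4 cells by 1.26 and was also called higher in MOLM-13 cells (0.58, adjusted p = 0.0325). VAV3 fell in MOLM-13 cells by 1.08 (1.70 to 0.766 RPKM), and it passed the filter only through its DMSO level. RAC1, the widely expressed relative of RAC2, fell in NB4 cells from 63.3 ± 4.44 to 44.6 ± 2.30 RPKM (SD, n = 3, log2 fold change -0.50, adjusted p = 0.000669), where RAC2 rose, while in MOLM-13 cells its log2 fold change of 0.14 was not called. The NB4 decrease of RAC1 kept its sign but lay under the fold cutoff under quantile normalization (-0.34), at a pseudocount of 1 (-0.49), and without DMSO replicate 2 (-0.45), FP54 replicate 2 (-0.48) or FP54 replicate 3 (-0.49). The interaction of RAC1 was -0.64 (adjusted p = 0.0101). ARHGDIB and ARHGDIA encode inhibitors that hold Rac in the cytosol. The former fell by 0.52 in NB4 cells and the latter by 0.50 in MOLM-13 cells, and both lay close to the cutoff: ARHGDIB was not called without NB4 DMSO replicate 2 (-0.49), FP54 replicate 2 (-0.50) or FP54 replicate 3 (-0.49), and ARHGDIA was not called when any 1 of 4 libraries was left out (-0.44 to -0.52), under quantile normalization (-0.44), at a pseudocount of 1 (-0.49) or with a replicate block (adjusted p = 0.0677).

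S100A8 and S100A9 encode the subunits of calprotectin, which delivers arachidonic acid to the oxidase. In MOLM-13 cells they rose from 1.08 to 3.66 RPKM (log2 fold change 1.72) and from 3.68 to 10.6 RPKM (1.49). In NB4 cells S100A9 was not called (1.49, SE 0.63, adjusted p = 0.0703). Its recovered reads there were 37, 31 and 22 with DMSO and 161, 29 and 21 with FP54, so FP54 replicate 1 held most of the signal. There S100A8 stood at 3.92 RPKM in FP54 replicate 1 and at 0.193 and 0.258 RPKM in replicates 2 and 3, so 1 library held the signal, and it was below the filter.

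Among the other NADPH oxidases and their partners, 2 of 11 genes were tested in MOLM-13 and 1 of 11 in NB4 cells. NOX1, NOX3 and NOX4 were listed at 0 in all 6 MOLM-13 libraries. In NB4 cells these 3 genes reached at most 0.386 RPKM, in FP54 libraries, in which the olfactory receptor genes were also raised; the part of that level in these values was not tested. NOXA1, known as a partner of NOX1, rose in MOLM-13 cells from 1.72 ± 0.380 to 7.18 ± 1.77 RPKM (SD, n = 3, log2 fold change 2.00, adjusted p = 0.00137). Exons of NOXA1 are overlapped by ENTPD8 on the opposite strand.

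The receptors upstream of the oxidase held more genes called higher than any other of the 6 lists, in both lines. In MOLM-13 cells 8 of 18 tested genes were called higher and 0 lower, with a median of 0.59, and in NB4 cells 9 of 16 were called higher and 1 lower, with a median of 0.79. In MOLM-13 cells these are 44.4% higher and 0% lower, beside 9.3% and 9.04% of all genes tested. In NB4 cells they are 56.2% and 6.25%, beside 18.6% and 10.7%. FPR1, the receptor of bacterial formyl peptides, rose by 2.01 in MOLM-13 cells (0.660 to 3.11 RPKM). CLEC7A, which encodes the fungal glucan receptor dectin-1, rose there by 1.48 (0.760 to 2.30 RPKM). Both are counted among the 8 but passed the filter of 1 RPKM only through their FP54 levels. Had they not risen, they would not have been tested. FPR1 was uneven with FP54, at 4.88, 1.86 and 2.57 RPKM. In NB4 cells C5AR1, the complement C5a receptor, rose by 1.99 (1.25 to 5.26 RPKM). ITGAM, the alpha chain of the complement receptor CR3 (CD11b), rose by 1.95 in the same cells (3.64 to 14.3 RPKM). FCGR1A, the high-affinity IgG receptor, fell by 1.07 in NB4 cells, from 5.58 ± 0.691 to 2.60 ± 0.290 RPKM (SD, n = 3, adjusted p = 7.72e-05), the only decrease among these receptors that was called with RPKM as deposited (2 were under median-ratio scaling and 2 under quantile normalization). Exons of FCGR1A overlap those of H2BC18 on the opposite strand. CSF2RA (X:1268800-1310381) was listed at 0 in all 12 libraries. Because the treatment of reads that match several places is not known here, this 0 is not read as absence of its mRNA.

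**Figure D4:**
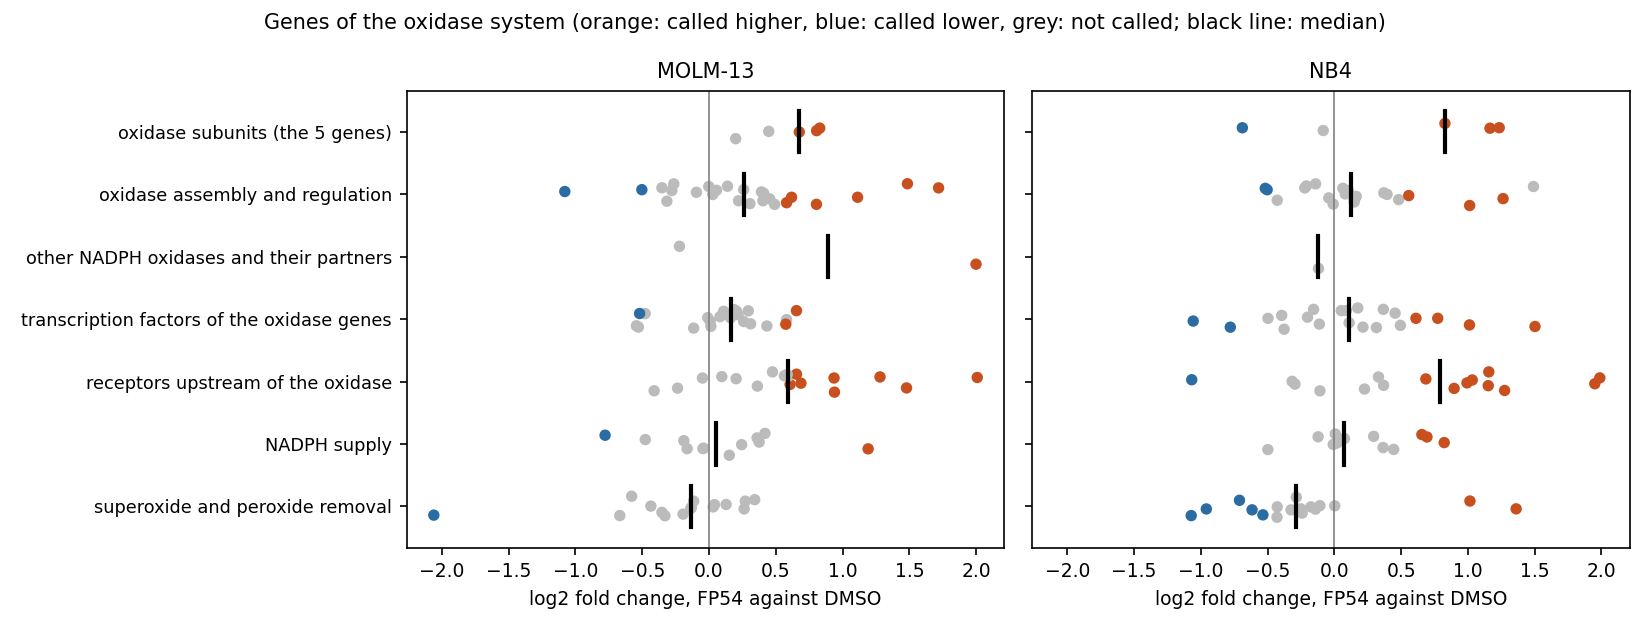
Log2 fold changes of FP54 against DMSO (horizontal axes) for the tested genes of the 5 oxidase subunits and of the 6 lists around them, in MOLM-13 (left) and NB4 (right) cells. Orange and blue points were called higher and lower, grey points were not called, and black lines are medians. The subunits and the upstream receptors have medians of 0.59 to 0.83, and the genes of superoxide and peroxide removal have medians of -0.13 and -0.29.

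Among 22 transcription factors of the oxidase genes, 21 were tested in each line, with 2 higher and 1 lower in MOLM-13 cells and 4 higher and 2 lower in NB4 cells (3 higher and 5 lower under median-ratio scaling). In MOLM-13 cells these are 9.52% and 4.76%, beside 9.3% and 9.04% of all genes tested. In NB4 cells they are 19% and 9.52%, beside 18.6% and 10.7%. Under median-ratio scaling 1168 of 9840 NB4 genes were higher and 2010 lower. SPI1, which encodes PU.1, was at 155 ± 11.9 and 173 ± 12.6 RPKM in MOLM-13 cells (SD, n = 3, log2 fold change 0.16, adjusted p = 0.415). In NB4 cells it was at 80.2 ± 13.4 and 60.5 ± 2.06 RPKM (SD, n = 3, -0.39, adjusted p = 0.0125), short of the fold cutoff, and was called lower under median-ratio scaling (-0.59). The interaction of SPI1 was -0.56 (adjusted p = 0.0463), close to the threshold. It did not pass without any 1 of 9 of the 12 libraries (-0.42 to -0.60), under quantile normalization (-0.39, adjusted p = 0.0934), with a replicate block (adjusted p = 0.104), with a filter at 5 RPKM (0.0528) or without a variance trend (0.0595). CEBPD rose by 0.57 in MOLM-13 cells, from 42.7 to 62.9 RPKM, and had a log2 fold change of -1.06 in NB4 cells, from 66.3 to 31.6 RPKM. The MOLM-13 increase of CEBPD was not called without DMSO replicate 2 (0.39), FP54 replicate 1 (0.54) or FP54 replicate 3 (0.52), nor, at an unchanged fold, without a filter or without a variance trend. CEBPE, the factor of late granulocyte maturation, had -0.78 in NB4 cells, while CEBPB had 1.50 there (11.7 to 32.7 RPKM). The fold change of IRF8, an interferon regulatory factor of monocytes and dendritic cells, was -0.52 in MOLM-13 cells, and it was not called when any 1 of 4 libraries was left out (-0.38 to -0.55). Nor was it called at a pseudocount of 1, without a filter, under quantile normalization, with a replicate block (adjusted p = 0.0807) or without a variance trend. Exons of CEBPB are overlapped by CEBPB-AS1, a noncoding RNA of the opposite strand.

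NADPH, the electron donor, is supplied by the pentose phosphate pathway and other enzymes. Of their genes 1 of 12 tested was called higher and 1 lower in MOLM-13 cells, and 3 of 13 were called higher and 0 lower in NB4 cells (1 and 1 under median-ratio scaling). In MOLM-13 cells these are 8.33% each, beside 9.3% higher and 9.04% lower of all genes tested. In NB4 cells they are 23.1% and 0%, beside 18.6% and 10.7%. NADK, which phosphorylates NAD, rose in MOLM-13 cells from 19.1 to 43.9 RPKM (1.19), while MTHFD1, an enzyme of folate metabolism, had a log2 fold change of -0.78. MTHFD2 and ME1, which encodes malic enzyme, rose in NB4 cells by 0.82 and 0.69, and ME1 lay just under the fold cutoff under median-ratio scaling (0.495, adjusted p = 0.000811). Of the genes of superoxide and peroxide removal, 0 of 16 were called higher and 1 lower in MOLM-13 cells, and 2 of 17 higher and 5 lower in NB4 cells (2 and 8 under median-ratio scaling, 2 and 4 under quantile normalization). These are 0% and 6.25% in MOLM-13 and 11.8% and 29.4% in NB4 cells, beside the shares of all genes just given. Over all NB4 genes, 1168 of 9840 were higher and 2010 lower under median-ratio scaling, and 1280 and 1363 of 9853 under quantile normalization. MPO, which encodes myeloperoxidase, the granule enzyme that turns hydrogen peroxide into hypochlorous acid, had a log2 fold change of -2.06 in MOLM-13 cells (16.1 to 3.79 RPKM) and of -0.96 in NB4 cells (2170 to 1116 RPKM). PRDX4, a peroxiredoxin, had -1.07 in NB4 cells, while SRXN1 and TXNRD1, which encode sulfiredoxin and thioredoxin reductase, rose there by 1.36 and 1.02. SRXN1 had means of 0.673 RPKM with DMSO and 1.86 with FP54, so it passed the filter only through its FP54 level.

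The summed RPKM of the 7 myeloid markers stood higher with FP54 in both lines. It was 875 to 909 with DMSO and 1192 to 1344 with FP54 in MOLM-13 cells, and 249.7 to 299.9 and 668 to 724 in NB4 cells. A few abundant genes carried these sums: CD68, a lysosomal protein of macrophages, went from a mean of 192 to 418 RPKM in MOLM-13 cells, and ANPEP, the surface peptidase CD13, from 136 to 553 RPKM in NB4 cells. The other markers did not all move that way. In NB4 cells SPI1 stood lower with FP54, as given above, and LYZ, the lysozyme gene, overlapped between treatments, with means of 33.6 and 30.3 RPKM. CD33 had means of 32.3 and 34.3 RPKM in MOLM-13 and 13.3 and 13.5 RPKM in NB4 cells. In NB4 cells the platelet gene ITGA2B had a mean of 2.07 RPKM with DMSO and 14.6 with FP54, while PF4, PPBP and GP9 were at 0. The summed level of the 4 primary granule markers was 2100.2 to 2344 RPKM with DMSO and 1106 to 1173 RPKM with FP54 in NB4 cells, and it overlapped between treatments in MOLM-13 cells. The part of these markers in the values of the subunits was not tested.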

How the data were processed

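RNA was analysed from 12 RNA-seq libraries, grouped by the cell line and treatment in their labels. The authors purified poly(A) RNA in 2 rounds for a stranded kit, trimmed adapters (Cutadapt 4.8), collapsed duplicates (Clumpify), aligned to hg38 (STAR 2.7.11b) and counted reads per protein-coding gene of GENCODE (featureCounts 2.0.3). The authors deposited RPKM, counts scaled by gene length and library total, for 20411 genes; the length, total and strand setting used are not given in the sources used here. How reads that match several places were counted is not given either, which bears on NCF1 and may bear on CSF2RA. Removing duplicates caps strongly expressed genes.

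Reads were recovered from RPKM with GENCODE exon lengths, and 98.5 to 99.2% of values of up to 50 reads were whole within 0.05. Intervals cover the spread between libraries. For genes with a mean of at least 1 RPKM, log2(RPKM + 0.1) was fitted with limma 3.58.1 (R 4.3.3, eBayes with trend) in each line, and in 1 model of all 12 libraries for the interaction. Adjustment was by Benjamini-Hochberg over all genes tested. A fold change on this scale understates changes of low genes. Sequences and figures were handled in Python 3.11.15 (pandas 2.3.3, numpy 2.4.6, matplotlib 3.10.9). The fit was tested on simulated data. Replicate numbers were not used as a block.

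The 5 genes, the gene lists and the tests were chosen with earlier results of these data known. Named genes are the 5 subunits, the 3 genes most like each by Pearson's r, and from each list and line the 2 largest increases and 2 largest decreases among called genes with no overlap between treatments; some list members counted here are not reported by name. The alternatives were other pseudocounts (1 and 0.01), no filter and a filter at 5 RPKM, median-ratio scaling, quantile normalization, a replicate block, other variance settings, limma-voom on recovered reads, an adjusted p cutoff, and leaving out each library; subtraction of the olfactory receptor level was added after the data were seen.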

Additional observations from a re-analysis of the deposited data

Results flagged for a closer look

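CYBB responded to FP54 in opposite directions in the cell lines, with an interaction of -1.36 on the log2 scale (NB4 minus MOLM-13, adjusted p = 0.000121 by limma). Among the other genes named in the text, 18 also had responses that differed between the lines in this test at an adjusted p below 0.05. The differences, again NB4 minus MOLM-13, were positive for C5AR1 (2.04), CEBPB (1.31), MTHFD2 (1.30), ITGAM (1.30), TXNRD1 (1.13), MPO (1.10), VAV3 (1.07), CACNA2D4 (1.06) and VAV2 (0.68). They were negative for CEBPD (-1.63), CEBPE (-1.21), NADK (-1.17), SLC22A4 (-1.07), SMNDC1 (-0.88), FCGR1A (-0.66), RAC1 (-0.64), SPI1 (-0.56) and ARHGDIB (-0.55). Of these 18 calls 4 lay close to the threshold. Those of VAV2 and SPI1 were each lost without any 1 of 9 of the 12 libraries, that of ARHGDIB without any 1 of 5 and that of FCGR1A without any 1 of 3, and with a replicate block all 4 were lost (adjusted p = 0.0754, 0.104, 0.0983 and 0.0726). VAV2 did not pass either under median-ratio scaling (0.52), quantile normalization (0.33) or a pseudocount of 1 (0.39), nor FCGR1A at a pseudocount of 1 (-0.48), and SPI1 was lost under 3 further settings. MPO was called lower in both lines, so its positive difference is a smaller decrease in NB4 cells. SLC22A4, SMNDC1 and CACNA2D4 were named for their likeness to CYBB or RAC2 over the same libraries, so their differences are not independent of those genes.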

How the results depend on the processing

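The 3 genes called in MOLM-13 cells, the 4 in NB4 cells and the CYBB interaction stayed called with the same sign under every alternative run. Leaving out 1 library gave 3 to 3, 4 to 4 and 1 to 2 called genes for MOLM-13, NB4 and the interaction. The second interaction gene was RAC2 (0.77, adjusted p = 0.0407) without MOLM-13 FP54 replicate 1, and CYBA (-0.71) under median-ratio scaling, which also gave 2. The log2 fold change of CYBA in NB4 cells, which was not called, changed sign to 0.082 under quantile normalization and ranged from -0.17 to 0.056 when 1 library was left out, positive without DMSO replicate 2. Adjusted p-values of the 3 MOLM-13 genes reached 0.0761 (CYBB), 0.0889 (NCF1) and 0.0979 (NCF4) without a filter on low values, where 20411 genes were tested, and at most 0.0531 without 1 library. For the other named genes, the call was lost in 24 of 369 refits in MOLM-13, 10 of 391 in NB4 and 37 of 408 of the interaction, the last all for VAV2, SPI1, ARHGDIB and FCGR1A. MTHFD1 in MOLM-13 and MPO in NB4 cells lost their calls only without a filter (adjusted p = 0.134 and 0.0638). The sign of FTO in MOLM-13 cells, not called, changed to 0.070 without FP54 replicate 1 (range -0.053 to 0.070 when 1 library was left out).

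Same-numbered libraries deviated together in neither line (correlations -0.26 to -0.06 in MOLM-13 and -0.14 to 0.12 in NB4 cells), so the numbers name libraries only. In MOLM-13 cells libraries of different numbers did deviate together. The correlations were 0.59 for DMSO replicate 1 with FP54 replicate 3, 0.49 for 2 with 1, and 0.47 for 3 with 2. In NB4 cells the largest was 0.22. The labels do not say what these libraries share, and no fit used these matches. With a replicate block 3, 4 and 1 of the 5 genes were called, as without it. The block gave 817 higher and 880 lower of all genes in MOLM-13 and 1862 and 1050 in NB4 cells, and 681 upward and 218 downward differences between the lines. Without a filter NB4 calls were 4265 higher and 951 lower, and interaction calls 3963 and 628. With a filter at 5 RPKM the counts were 509 and 560 in MOLM-13, 789 and 838 in NB4 cells, and 432 and 201 for the interaction. Without 1 library MOLM-13 counts fell as low as 540 higher and 503 lower (FP54 replicate 1) and 593 and 462 (DMSO replicate 3), and the interaction counts as low as 607 and 200 (NB4 FP54 replicate 2).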
